A study of Mus musculus with 16 samples.

Results

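The E16.5 arm of a mouse study compared adrenal glands whose steroidogenic cells lost Dicer with glands of littermates that did not carry Cre. The miRNAs considered were those whose assay was detected in at least 3 of the 4 KO samples or at least 3 of the 4 WT samples at E16.5, and 332 of the 741 miRNA names on the panel met this rule. The KO group had the genotype Sf1-Cre/Dicer lox/lox, and the group labelled WT was Cre-negative, so its adrenals came from the same matings of floxed Dicer mice. The sources used here do not give the Dicer alleles that the WT embryos carried. All mice were C57BL/6. Each sample pooled adrenals of 1 genotype from 1 of 4 litters, so pools and not single embryos were the replicates, with 4 WT and 4 KO samples at E16.5 of 16 in the series. Sf1 drives Cre in the steroidogenic cells of the adrenal cortex, so chromaffin, endothelial and blood cells of a KO gland keep Dicer. Neither the Dicer transcript nor protein-coding markers of the cortex were measured, and the labels could not be checked against the deleted gene.

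A miRNA is cut from a hairpin precursor. Drosha releases the hairpin from its transcript in the nucleus, and Dicer removes the loop in the cytoplasm, leaving a duplex of a 5p and a 3p arm. The arm loaded more often into Argonaute is called the major arm, and assay names ending in # denote the minor arm. Bases 2 to 8 of the mature miRNA, the seed, pair with target mRNAs, so miRNAs that share a seed are grouped as a family. Loss of Dicer stops new production, while miRNAs already loaded into Argonaute can persist, and cells outside the Cre domain go on producing theirs.

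The results turn on a few families, whose mature sequences are shown first. They are from RefSeq (GRCm38.p6), which held the named arm for 211 of the 332 assays, an older name without an arm being read as the major arm. Sequences run 5′ to 3′ with the seed in capitals. The first set holds 4 of the let-7 family with miR-98, and miR-202 and miR-672, whose seeds start with the same bases.
let-7a: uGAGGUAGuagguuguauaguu
let-7d: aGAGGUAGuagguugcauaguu
let-7e: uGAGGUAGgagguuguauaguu
let-7f: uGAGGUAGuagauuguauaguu
miR-98: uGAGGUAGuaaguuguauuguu
miR-202: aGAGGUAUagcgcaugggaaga
miR-672: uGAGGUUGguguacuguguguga

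The second set is of the miR-34 family. The 5p arms of miR-34a and miR-34b share 1 seed, and the 3p arms of miR-34b and miR-34c share another. The sequence of miR-34c itself is not shown.
miR-34a: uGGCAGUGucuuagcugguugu
miR-34b-5p: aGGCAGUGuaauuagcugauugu
miR-34b-3p: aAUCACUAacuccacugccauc
miR-34c#: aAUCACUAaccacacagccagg

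The third set places 2 miRNAs of the miR-290 cluster beside 2 of the miR-17 family, since the seed of miR-295 is that of miR-17 moved by 1 base.
miR-293: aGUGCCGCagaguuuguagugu
miR-295: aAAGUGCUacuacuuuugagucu
miR-17: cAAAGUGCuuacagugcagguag
miR-106b: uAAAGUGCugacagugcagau

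The last set holds miRNAs that stood out singly, 4 lower and 1 higher in KO.
miR-21: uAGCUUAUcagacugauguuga
miR-10a: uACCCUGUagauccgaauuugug
miR-365: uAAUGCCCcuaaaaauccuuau
miR-107: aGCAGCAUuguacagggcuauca
miR-690: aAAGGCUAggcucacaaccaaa

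RNA was read on a TaqMan real-time PCR panel, which gives for each well a threshold cycle (Ct), where each cycle fewer corresponds to about a doubling of template. A level here is the mean Ct of the small RNA controls U6, snoRNA135, snoRNA202, U87 and Y1 in that sample minus the Ct of the assay, so it is on a log2 scale and higher means more RNA. A Ct above 28, or none, counted as undetected and was set to 28. A change given as at least some fold assumes that wells without a Ct lay past this limit. Levels of different assays are not comparable, because assays amplify with different efficiency, and a difference between genotypes is KO minus WT for the same assay. Precision is limited by having 4 samples in a group. Between 298 and 356 miRNA assays were detected per E16.5 sample, and the genotypes did not separate by this count (WT 340 ± 12.6, KO 326 ± 24.7, SD, n = 4, two-sided exact permutation p = 0.371).

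WT replicates 1 and 2 stood apart from the other 6 samples. The control wells of a panel lie in 2 sets of sub-arrays, and those of set 2 crossed later than those of set 1 by 1.63 and 2.26 cycles in these samples, by 0.87 and 0.78 cycles in WT replicates 3 and 4, and by 0.49 to 0.79 cycles in the KO samples. The control mean Ct was 17.37 and 18 in WT replicates 1 and 2 and between 16.30 and 16.95 in the others. With the mean of all controls as reference, a sample with late set 2 controls gains level for assays of set 1. Each main value is therefore followed, where it matters, by the value with the control wells of the assay's own set, called the own-set value, and by the value without WT replicates 1 and 2. When each of the 5 controls was set against the remaining 4, KO and WT were -0.25 to 0.23 apart, with p from 0.0857 to 0.714 in two-sided exact permutation tests. This cannot show a move that all 5 share.

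Relative to the small RNA controls, most miRNAs lay lower in KO adrenals. Of the 332 assays, 144 fell and 2 rose (limma on all 16 samples, Benjamini-Hochberg adjusted p under 0.05), where over the 341 assays tested 42.2% were called lower and 0.587% higher. The split turned with the miRNA median as reference, which takes out a shift shared by most miRNAs (14 lower and 46 higher), and with no reference 13 were lower and 1 higher. The median of the 332 changes was -1.04 on the log2 scale, and 302 lay below 0. Of the 144 that fell, 34 were at least 4-fold lower, 106 lay between 2-fold and 4-fold, and 4 had a smaller change. Less RNA per cell and fewer cells of a type cannot be told apart in whole glands.

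The filter on detection let some assays pass through 1 genotype. There were 296 assays detected in at least 3 samples of both, of which 125 fell and 2 rose, with a median change of -1.02. Another 27 passed through WT alone and 9 through KO alone, and these had to differ in detection. In 269 assays every one of the 8 samples was detected, and 118 of these fell. Every KO sample lay below every WT sample in 137 assays (40.5% of all tested) and above in 4 (1.17%).

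The 2 sets of sub-arrays gave different medians under the mean of all controls and similar ones under their own controls. The 219 assays of set 1 had a median change of -1.27 and the 106 of set 2 of -0.58, with 124 and 18 called lower. With own-set controls the medians were -0.89 and -0.95, with 77 and 32 called. In all, 111 assays were called lower with own-set controls (32.6% of all tested), and 97 of them were among the 144. Without WT replicates 1 and 2, 21 assays were called lower, all among the 144, and with own-set controls as well 23 were, of which 22 were among the 144. The median change then was -0.81 and -0.76. These fits keep 2 WT samples, so they have less precision and call fewer assays for that reason too. No other pair of samples was left out for comparison. The plot of changes by set shows the difference between the sets with 1 reference and their overlap with the other.

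**Figure D1:**
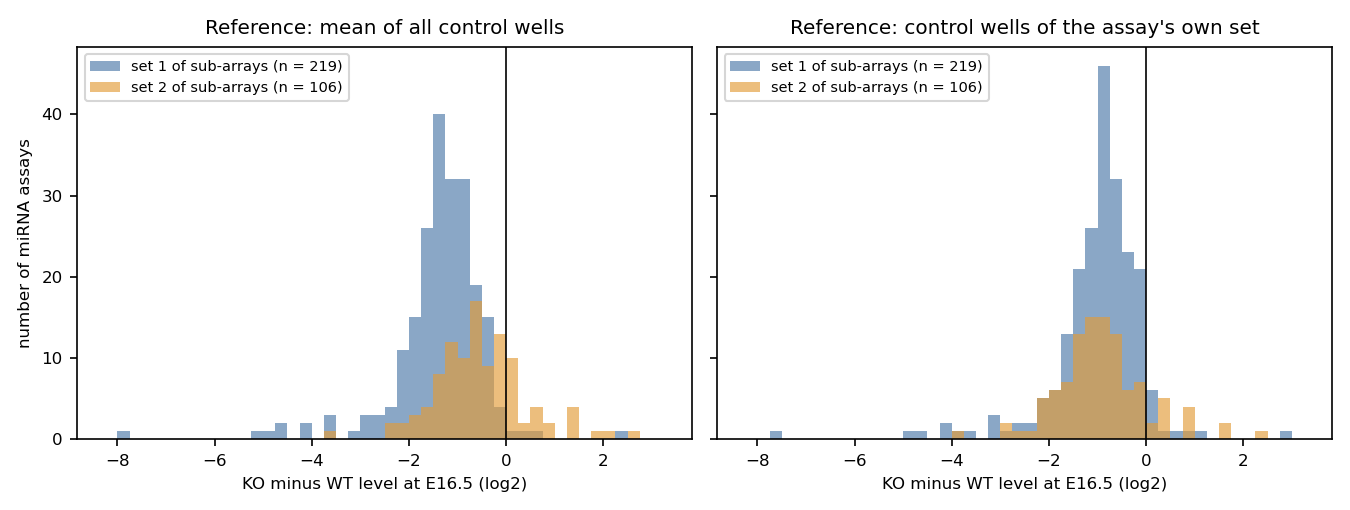
Histograms of the KO minus WT level (log2) of miRNA assays at E16.5, for the 219 assays of set 1 and the 106 of set 2, with the mean of all control wells as reference (left) and with the control wells of the assay's own set (right). Set 1 lies left of set 2 in the left panel (medians -1.27 and -0.58), and the 2 overlap in the right panel (medians -0.89 and -0.95).

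A core of assays was called under each of these choices that could test it. Of the 144, 18 were called lower in each of the 22 alternatives that scale to small RNA controls and could test them. They were miR-98, miR-202, miR-293, miR-292-3p, miR-34c, miR-34c#, miR-34b-3p, miR-34b-5p, miR-365, miR-295, miR-672, miR-21, miR-107, miR-193#, miR-10a, miR-196a, miR-193b and miR-18a#. Of these, 12 were also called with the miRNA median as reference and with no reference wherever they were tested, which are the listed assays other than miR-34b-5p, miR-107, miR-193#, miR-196a, miR-193b and miR-18a#. miR-98, miR-202, miR-293, miR-295, miR-34b-5p and miR-34c# passed the detection filter through WT alone, so their lower detection in KO was set by the filter. They could not be tested where all 8 samples had to be detected. The plot of levels by sample shows 14 of the 18 with 10 others for contrast.

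**Figure D2:**
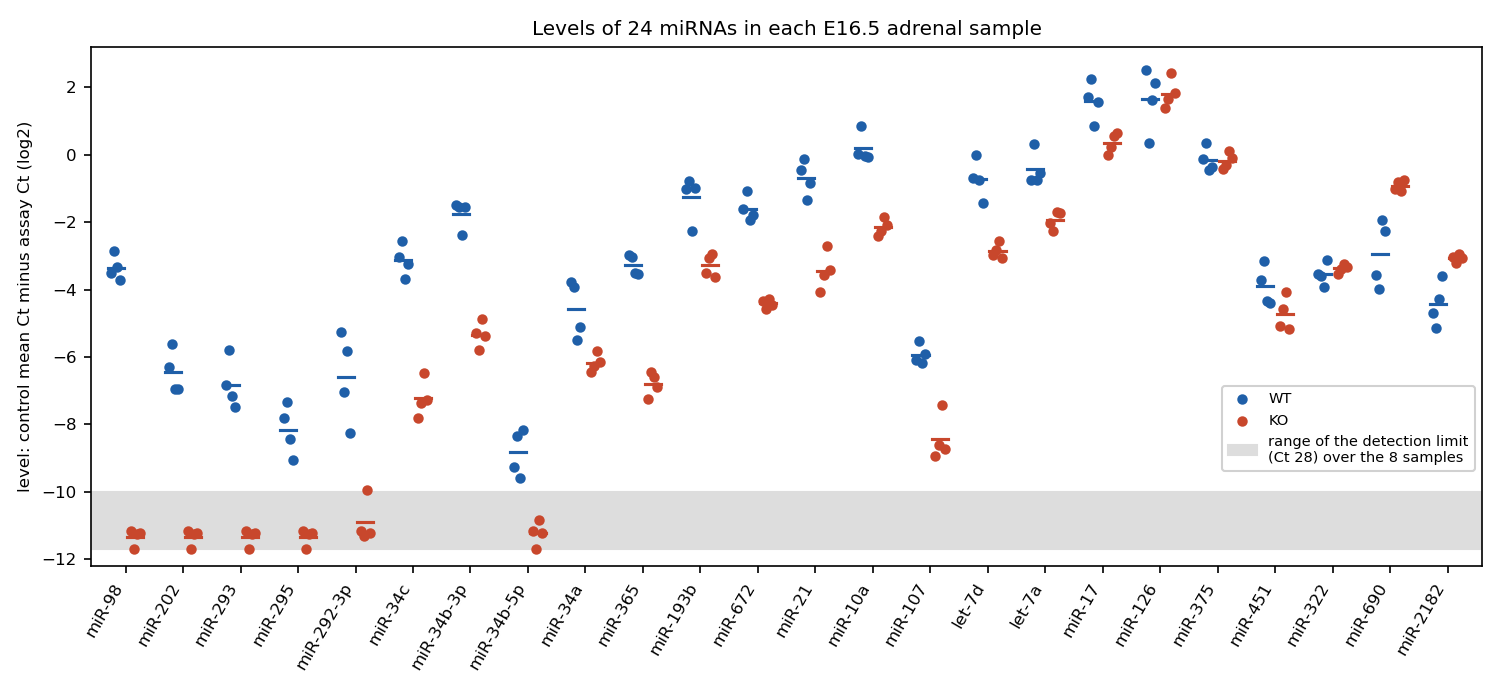
Level of 24 miRNAs (control mean Ct minus assay Ct, log2) in each of the 4 WT and 4 KO adrenal samples at E16.5, as points, with the group mean as a bar. The grey band is the range over samples of the level at the detection limit, and all KO points of miR-98, miR-202, miR-293 and miR-295 lie at that limit.

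The let-7 family, known for promoting differentiation and restraining Lin28, ras and myc, fell as a whole, and miR-98, a member of it, was lost from the assay. All 9 family assays fell with either reference, against 42.2% of all assays, with a median change of -1.64 (-1.26 own-set). The level of miR-98 was -3.50, -2.86, -3.34 and -3.71 in the WT samples, and no Ct was recorded in any KO sample. It thus passed the detection filter through WT alone, which set its direction. Its raw Ct in WT lay between 20.05 and 20.87, more than 7 cycles below the limit. Setting the KO samples to the limit put the change at -7.98 on the log2 scale (SE 0.41, limma adjusted p = 2.21e-10), or -7.61 with own-set controls. If no Ct means a level past the limit, miR-98 was at least 253-fold lower, or at least 195-fold with own-set controls. A well without a Ct need not mean this. At E15.5 miR-194 gave a Ct of 22.80 and 23.75 in 2 WT samples and none in the other 2. At E15.5 no Ct was recorded for miR-98 in any of the 4 KO samples either, while the WT samples lay between 19.78 and 22.83.

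The other let-7 assays were detected in all samples and changed much less. let-7d was at -0.69, 0.00, -0.76 and -1.44 in WT and at -2.96, -2.83, -2.55 and -3.07 in KO, so the groups did not overlap. Its log2 change was -2.13 (SE 0.42, limma adjusted p = 0.00246), and the smallest change, that of let-7e, was -1.30 (SE 0.39, limma adjusted p = 0.0152). let-7a was at -0.74, 0.31, -0.74 and -0.53 in WT and at -2.02, -2.27, -1.70 and -1.74 in KO. Without WT replicates 1 and 2, miR-98 alone of the 9 was called (let-7d -1.75, limma adjusted p = 0.0582, and let-7a -1.29, 0.138).

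In sequence miR-98 differs from let-7a at 2 positions outside the seed, G11A and A19U, counted from the 5′ end with the base of let-7a first. let-7d differs by U1A and U16C, let-7e by U9G and let-7f by G12A. The hairpin of miR-98 lies on chromosome X at 151913214 to 151913321 on the plus strand (GRCm38.p6), 785 bases after a hairpin of let-7f. let-7f, which also comes from chromosome 13, fell by 1.82 on the log2 scale (SE 0.41, limma adjusted p = 0.00526). So miRNAs of neighbouring hairpins with the same seed were measured at unlike changes, and whether the miR-98 assay read other let-7 members was not tested.

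miR-202, a miRNA of the gonads and a distant relative of let-7 by seed, was at -6.30, -5.61, -6.94 and -6.94 in WT. It was undetected in all KO samples, and the 3 of them that gave a Ct lay at 28.98 to 31.00. It thus passed the detection filter through WT alone, which set its direction. miR-202 was at least 29.6-fold lower, or at least 22.8-fold with own-set controls (log2 -4.89, SE 0.45, limma adjusted p = 7.53e-07). miR-672 was at -1.61, -1.07, -1.93 and -1.79 in WT and at -4.33, -4.57, -4.27 and -4.46 in KO, a narrow range in either genotype. It fell 6.98-fold (log2 change -2.80, SE 0.35, limma adjusted p = 2.01e-05). The 11 assays whose seed starts with GAGGU all fell, with a median change of -1.75, where 92 of the other 200 assays with a RefSeq sequence fell, with a median of -1.10. This grouping was chosen after the values were seen.

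The miR-34 family, whose members are targets of p53 and restrain the cell cycle, fell most at the locus of miR-34b and miR-34c. The 2 hairpins lie on the minus strand of chromosome 9 with 451 bases between them (GRCm38.p6), and all 4 of their detected arms fell with either reference and without WT replicates 1 and 2. Another assay, named miR-34b, was undetected in all 8 samples. miR-34c and miR-34b-3p were detected in all 8 samples, while miR-34c# and miR-34b-5p passed the detection filter through WT alone. The lower detection of those 2 in KO was thus set by the filter. The median change of the 4 arms was -3.60, against -1.04 over the 332.

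Values of the 4 arms show the same order of genotypes in every sample. miR-34c was at -3.05, -2.55, -3.68 and -3.23 in WT and at -7.82, -7.36, -6.48 and -7.26 in KO, 17.2-fold lower (-4.10 in log2, SE 0.44, limma adjusted p = 2.96e-06). miR-34b-3p was at -1.50, -1.54, -2.38 and -1.54 in WT and at -5.30, -5.80, -4.88 and -5.37 in KO, 12.1-fold lower (-3.59, SE 0.35, limma adjusted p = 1.23e-06). A no-template well of this assay gave a Ct of 27.55, later than in any sample. miR-34c# was at -6.83, -8.09, -6.38 and -6.30 in WT, and 2 of the 4 KO samples were undetected (-3.61, SE 0.58, limma adjusted p = 0.000295). miR-34b-5p was detected in 1 KO sample, at -10.83, and its WT levels ran from -9.58 to -8.15 (-2.40, SE 0.51, limma adjusted p = 0.00396).

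miR-34a, made from another chromosome with the seed of miR-34b-5p, changed less. It was at -3.77, -3.93, -5.51 and -5.10 in WT and at -6.45, -6.26, -5.82 and -6.16 in KO. WT replicates 3 and 4 lay nearer to the KO samples than WT replicates 1 and 2 did, and the groups did not overlap. The change was -1.59 (SE 0.42, limma adjusted p = 0.00993), and -0.87 without WT replicates 1 and 2 (limma adjusted p = 0.206).

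The miR-290 cluster on chromosome 7 is a family of miRNAs of embryonic stem and germ cells, and 3 of its 16 panel assays were detected here. All 3 were called lower with either reference and without WT replicates 1 and 2. miR-293 and miR-295 passed the detection filter through WT alone, so their direction was fixed by the filter, and miR-292-3p was detected in 4 WT and 3 KO samples. miR-293 was at -6.83, -5.78, -7.17 and -7.49 in WT and was undetected in KO, at least 22.9-fold lower, or 17.6-fold with own-set controls (log2 -4.52, SE 0.43, limma adjusted p = 9.63e-07). In 3 KO samples it did give a Ct, of 28.18 to 28.40, just past the limit. miR-295 was at -7.81, -7.33, -8.43 and -9.07 in WT and undetected in KO, at least 9.04-fold lower, or 6.96-fold with own-set controls (-3.18, SE 0.50, limma adjusted p = 0.000293). Its KO wells gave a Ct of 31.03 or later, or none. miR-292-3p was at -5.27, -7.03, -5.83 and -8.25 in WT, a wide range (change -4.32, SE 0.58, limma adjusted p = 4.73e-05). KO replicate 3 at -9.96 was the highest of its KO samples and the next lay at -11.15, close to the limit. The size of its change thus rests in part on wells set to Ct 28. Of the other 13 assays, 11 were undetected in all 8 samples.

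miR-365 and miR-193 come from paired hairpins and fell together. Hairpins of miR-193b and miR-365 lie 4238 bases apart on chromosome 16, and those of miR-193a and the second miR-365 copy 14365 bases apart on chromosome 11 (GRCm38.p6). miR-365 was at -2.98, -3.03, -3.50 and -3.54 in WT and at -7.25, -6.46, -6.58 and -6.90 in KO, 11.6-fold lower (-3.54 in log2, SE 0.57, limma adjusted p = 0.000295). miR-193b was at -1.02, -0.76, -2.27 and -1.0 in WT and at -3.50, -3.06, -2.94 and -3.62 in KO (-2.02, SE 0.38, limma adjusted p = 0.00138). miR-193#, the minor arm of the chromosome 11 hairpin, changed by -2.40 (SE 0.52, limma adjusted p = 0.00424). In each of the 3 the genotypes did not overlap. The pairing was looked up after their values were seen.

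Single miRNAs with large falls include miR-21, an abundant miRNA that is raised in many growing tissues and tumours. It was at -0.46, -0.12, -1.34 and -0.84 in WT and at -4.06, -3.56, -2.69 and -3.42 in KO, 6.69-fold lower (-2.74 in log2, SE 0.43, limma adjusted p = 0.000248). Every KO sample lay more than 1 unit below the lowest WT sample. miR-107, encoded in a pantothenate kinase gene, was at -6.10, -5.53, -6.18 and -5.91 in WT and at -8.95, -8.61, -7.41 and -8.74 in KO (-2.50, SE 0.50, limma adjusted p = 0.00252). The closely related miR-103 changed by -1.25 (SE 0.34, limma adjusted p = 0.0103).

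Of the 6 detected Hox cluster assays, miR-10a and miR-196a fell, where 42.2% of all assays did. miR-10a was at 0.02, 0.87, -0.02 and -0.07 in WT and at -2.40, -2.27, -1.83 and -2.07 in KO, 5.07-fold lower (-2.34 in log2, SE 0.34, limma adjusted p = 0.000122). miR-196a was at -3.55, -3.03, -3.39 and -3.18 in WT and at -6.57, -4.44, -4.46 and -5.84 in KO (-2.04, SE 0.45, limma adjusted p = 0.00494). Here KO replicates 1 and 4 lay more than 1 unit below the other 2. The other 4 did not pass, miR-196b (-1.38), miR-615 (-0.89) and both assays of miR-10b, which differed in sign. The assay with the human name gave -0.98 (SE 0.41, limma adjusted p = 0.063) and that with the mouse name 0.62 (SE 0.45, limma adjusted p = 0.264). They lie in different sets, and with own-set controls the values were -0.60 and 0.24.

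The families tied to proliferation are those of miR-17 and miR-16. The cluster of miR-17 and its paralogues had 18 detected assays, of which 12 fell, with a median change of -1.41, where 42.2% of all assays were called and the median was -1.04. miR-18a# (-1.84, SE 0.41), miR-106b (-1.59, SE 0.37) and miR-93 (-1.42, SE 0.34) were the clearest. With own-set controls 9 were called lower, and without WT replicates 1 and 2 miR-18a# alone was. miR-17 itself was at 1.72, 2.24, 0.86 and 1.58 in WT and at 0.01, 0.24, 0.56 and 0.64 in KO (-1.24, SE 0.37, limma adjusted p = 0.0159, own-set 0.0519). By seed, 5 of the 7 assays with the seed AAAGUGC fell.

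miR-20a of the same cluster shows how 1 undetected well enters these values. It was at 1.43, 1.87, 0.85 and 1.22 in WT and at -0.36, -0.03 and 0.40 in KO replicates 1 to 3, while KO replicate 4 was undetected. With that well at the limit the change was -4.15 (SE 1.72, limma adjusted p = 0.0609), which did not pass. The 3 detected KO samples all lay below all WT samples.

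The family of miR-16, which holds cells in G1, includes miR-15, miR-195, miR-322, miR-497 and miR-503. Of its 8 assays 3 fell (miR-424, miR-16 and miR-15b), with a median of -1.06, where 42.2% of all assays fell. With own-set controls 1 was called, where 32.6% of all assays were. miR-16 was at 1.08, 1.61, 0.34 and 0.80 in WT and at -0.50, -0.37, 0.14 and -0.43 in KO (-1.25, SE 0.40, limma adjusted p = 0.022, own-set 0.0818). The assay named miR-424, the human name of the mouse miR-322 orthologue, changed by -2.12 (SE 0.48, limma adjusted p = 0.00526). The assay named miR-322 changed by 0.17 (SE 0.39, limma adjusted p = 0.713), with WT levels of -3.91 to -3.12 and KO levels of -3.54 to -3.23. The 2 assays lie in different sets, and with own-set controls they gave -1.74 and -0.21. They thus differ for what may be 1 miRNA.

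Other families were counted against the same 42.2%, and 32.6% with own-set controls. All 4 assays named miR-30b, miR-30c, miR-30d and miR-30e were called lower, 3 of them with own-set controls. miR-30b was at 2.11, 2.53, 1.28 and 1.81 in WT and at 0.37, -0.08, 0.61 and -0.11 in KO (-1.73, SE 0.42, limma adjusted p = 0.00779). miR-30e changed by -1.99 (SE 0.48, limma adjusted p = 0.00728). Of 3 miR-29 assays, miR-29b (-1.94, SE 0.56, 2 of 4 KO samples undetected) and miR-29c (-1.94, SE 0.75) fell, the second not with own-set controls (limma adjusted p = 0.12). Of 7 assays each, 5 of the clusters of miR-23, miR-24 and miR-27 and 6 of the families of miR-130 and miR-148 fell, and 3 and 2 with own-set controls. Neither miR-181 assay passed (-0.80 and -0.82). Without WT replicates 1 and 2, 0 assays of these families were called by limma.

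**Figure D3:**
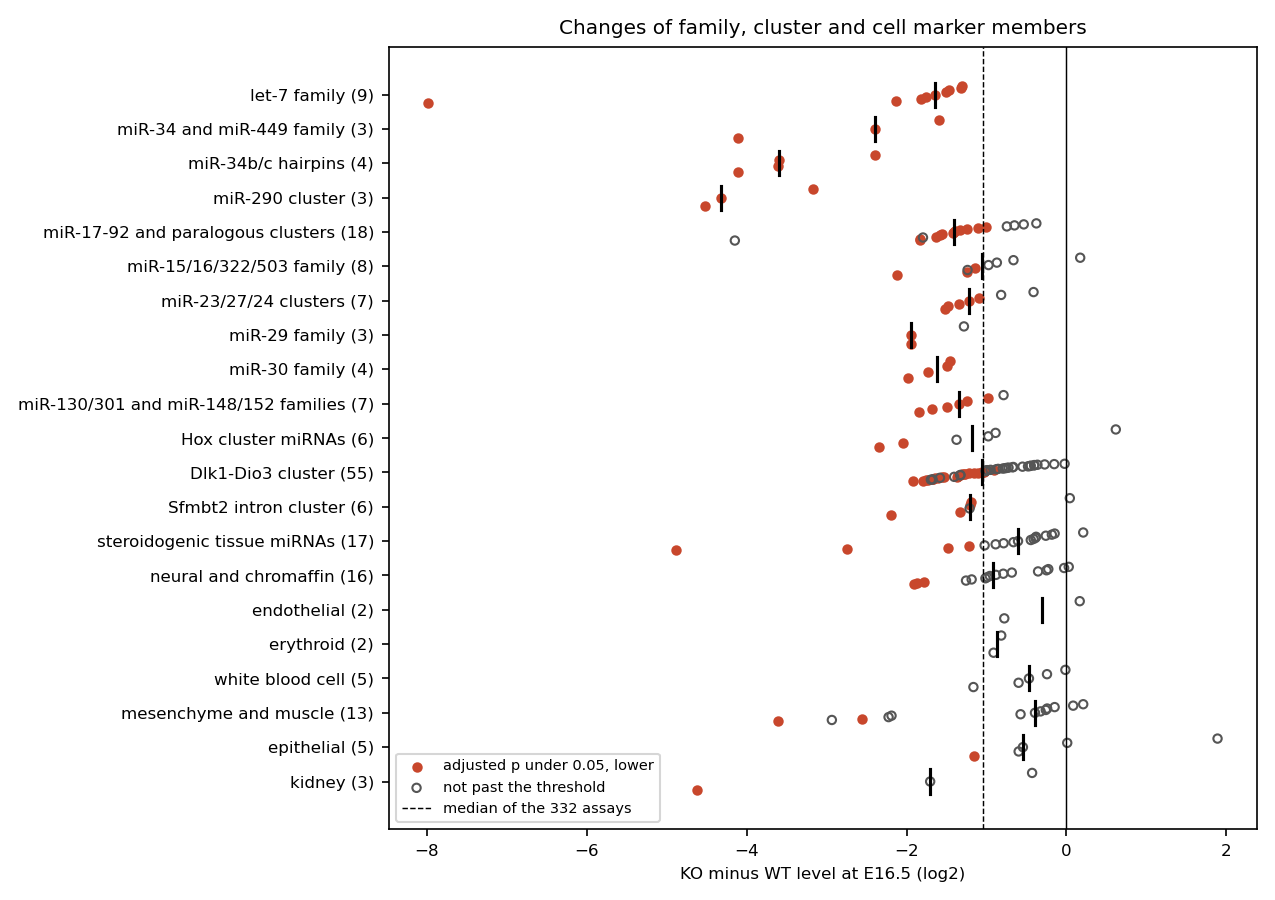
KO minus WT level (log2) of each detected member of 21 lists of miRNA families, clusters and cell markers at E16.5, 1 point per assay, filled where limma's adjusted p was under 0.05, with the list median as a short bar and the median of the 332 assays (-1.04) as a dashed line. The number of members stands in parentheses, and the medians of the let-7, miR-34 and miR-290 lists lie left of the dashed line, those of the marker lists of other cells other than kidney right of it.

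Neighbouring hairpins were also grouped by position alone, within 10000 bases on 1 strand. A cluster on chromosome X at 7237683 to 7248497 (GRCm38.p6), with miR-188, miR-362, miR-500, miR-501 and miR-532, had 4 of 7 assays lower and a median of -1.42, where 42.2% of all assays were called. With own-set controls 5 were called, and without WT replicates 1 and 2 limma called 0. Its miR-501# was at -3.85, -3.15, -4.02 and -4.43 in WT and at -6.53, -5.71, -5.32 and -6.33 in KO (-2.11, SE 0.48, limma adjusted p = 0.00526). Another cluster on chromosome X at 53047997 to 53054349, with miR-322, miR-450, miR-503 and miR-542, had 1 of 8 assays lower, miR-450, and a median of -0.53. The cluster of miR-199a and miR-214 on chromosome 1, expressed in mesenchyme, had 0 of 5 called by limma, also 0 with own-set controls, over changes of -0.57 to 0.21. Of 55 detected assays of the imprinted Dlk1-Dio3 cluster on chromosome 12, 26 fell, where 42.2% of all assays did, with a median of -1.06. The number called was 16 with own-set controls, 10 without WT replicate 2, and 1 without WT replicates 1 and 2.

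Both arms of 1 hairpin leave Dicer together, and 50 hairpins had both arms detected. Arms often lie in different sets of sub-arrays, here in 34 of the 50, so own-set values are compared. The 2 arms changed within 1 unit of each other in 45 hairpins, with a median gap of 0.41, and both lay below 0 in 46. Arms of unlike hairpins were not compared. Of all 332 main changes 302 lay below 0, with quartiles of -1.51 and -0.56, so these counts are not shown to be particular to arms of 1 hairpin. Both arms were called lower in 12, 1 arm in 14 and neither in 24, where 32.6% of all assays were called. The hairpins of miR-434 and miR-542 had nearly equal arms, -1.0 and -0.98 for miR-434-5p and miR-434-3p, and -0.59 and -0.61 for miR-542-5p and miR-542-3p, neither called.

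The arms that differed most include 3 hairpins with an assay undetected in part of the samples. miR-674 was at -3.84, -3.01, -7.95 and -4.0 in WT, and in KO it was detected in replicate 2 alone, at -6.11, so WT replicate 3 lay below that KO sample. Its change was -4.86 with own-set controls (limma adjusted p = 0.021) while its minor arm miR-674# changed by -2.04 (limma adjusted p = 0.00575). miR-20a and miR-20a# gave -3.77 and -0.91, neither called. miR-296 and miR-296-3p gave -0.62 and 2.85, as miR-296-3p was detected in WT replicate 1 alone and in all KO samples, at -7.74 to -7.01 (own-set limma adjusted p = 0.0393, main change 2.47, 0.0562). WT replicate 1 lay at -6.87, above every KO sample. Other unlike arms were miR-337-5p and miR-337-3p (-0.50 and -1.54) and miR-423-5p and miR-423-3p (-0.28 and -1.35), of which the 3p arms were called.

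**Figure D4:**
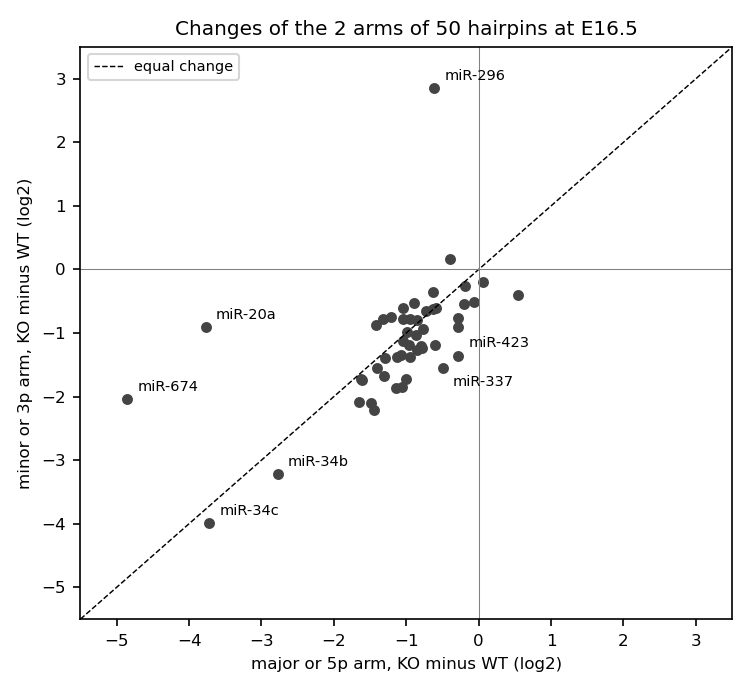
KO minus WT level at E16.5 (log2, own-set controls) of the major or 5p arm (horizontal) and the minor or 3p arm (vertical) of 50 hairpins, 1 point each, with a dashed line of equal change. In 45 of 50 the arms lie within 1 unit of each other, and miR-674, miR-20a and miR-296 lie farthest from the line.

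For 15 names the panel held 2 assays that were both detected, designed to different species. Their changes differed by a median of 0.57 and at most 1.60, both were called for miR-487b, and for 7 names 1 of the 2 was called. The assays of miR-1 (hsa -3.61, limma adjusted p = 0.0252, and rno -2.94, 0.059) and of miR-324-3p, miR-350, miR-381, miR-543, miR-20b and miR-376a# are the 7. A call of 1 assay is thus not always shared by the other.

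Among the 10 members with the highest WT level, which is an order of Ct and not of abundance, 6 fell, where 42.2% of all assays did. The 6 were miR-19b, miR-24, miR-127, miR-30c, miR-30b and miR-17, with changes of -1.73 to -1.02. miR-24 was at 2.69, 3.08, 1.72 and 2.40 in WT and at 1.00, 1.25, 1.63 and 1.12 in KO. WT replicate 3 lay just above the highest KO sample. With own-set controls miR-30b alone of the 6 passed (limma adjusted p = 0.0294), where 32.6% of all assays were called lower. The other 4, miR-2134, miR-1937b, miR-1937c and miR-126, had changes of 0.17 to 1.34, none past the threshold.

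Of 17 detected assays for miRNAs described in steroidogenic tissue, 4 fell, miR-202, miR-21, miR-210 and miR-24, where 42.2% of all assays did. miR-24 missed the threshold with own-set controls (limma adjusted p = 0.064), where miR-503# passed (-0.77, 0.0391), and without WT replicates 1 and 2 the calls were miR-202 and miR-21. miR-210, which is induced by low oxygen, was at -0.87, -0.65, -1.88 and -1.38 in WT and at -3.02, -2.67, -2.30 and -2.72 in KO (-1.48, SE 0.37, limma adjusted p = 0.00804, own-set 0.0175). The median of the list was -0.61. miR-125b, miR-132, miR-212, miR-214 and miR-503 did not pass, with changes of -0.66 to 0.21.

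miRNAs of cells outside the cortex passed in few cases. miR-126 of endothelial cells was at 2.51, 0.35, 1.62 and 2.13 in WT and at 1.38, 1.65, 2.42 and 1.83 in KO (0.17, SE 0.48, limma adjusted p = 0.773, interval -0.85 to 1.18). miR-375, found in chromaffin and other endocrine cells, was at -0.11, 0.36, -0.44 and -0.36 in WT and at -0.41, -0.30, 0.12 and -0.08 in KO (-0.03, SE 0.34, limma adjusted p = 0.949, interval -0.76 to 0.70). miR-223 of white blood cells had -0.01 (SE 0.42, limma adjusted p = 0.977). Intervals here are 95% limma intervals. These 3 were the members nearest to 0 of their lists or close to it. In the same lists miR-126# had -0.78 (SE 1.49), miR-155 -1.16 and miR-142-3p -0.60, none called.

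The neural, white blood cell, endothelial and epithelial lists had medians of -0.92, -0.47, -0.31 and -0.55, against -1.04 over the 332 assays. The kidney list had -1.71 and the 1 liver assay -1.05. Of 16 detected neural and chromaffin assays (27 on the panel), 3 fell, miR-182, miR-135b and miR-128a, where 42.2% of all assays did. With own-set controls 3 were called as well, where 32.6% of all assays were. The lists that follow, other than that of mesenchyme and muscle, have too few assays for their counts to be set against these shares. Of 5 white blood cell assays (7 on the panel) and 2 endothelial ones limma called 0, and at an unadjusted p under 0.05 also 0, the smallest being 0.0593 for miR-155. Of 5 epithelial assays (12 on the panel, miR-200a and miR-141 at no detected level in any sample), miR-203 fell (-1.16, SE 0.41, limma adjusted p = 0.0335, own-set 0.13). The summed level of the neural list was 1.46 to 2.32 in WT and 1.05 to 1.79 in KO, that of the endothelial list 1.08 to 2.65 and 1.54 to 2.54, and that of the white blood cell list -0.96 to 0.05 and -1.09 to 0.05. These ranges overlap.

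Of 3 detected kidney assays, miR-194 fell (log2 change -4.62, SE 1.16, limma adjusted p = 0.00857). It was at -5.35, -4.94, -6.12 and -5.54 in WT, and in KO it was detected in replicate 2 alone, at -6.80. It thus passed the detection filter through WT alone. At E15.5 it gave a Ct in 2 of 4 WT samples (22.80 and 23.75) and in 1 KO sample (23.82), so it also dropped out in WT. Its neighbour on chromosome 19, miR-192, 115 bases away, was detected in all samples and changed by -1.71 (SE 0.71, limma adjusted p = 0.063). The summed kidney level was -3.25 to -2.39 in WT and -3.96 to -3.35 in KO, without overlap, miR-215 was undetected in all 8 samples, and whether kidney tissue in the dissections had a part in this was not tested. The liver miRNA miR-122 ran from -8.90 to -4.76 in WT and from -10.65 to -4.52 in KO (-1.05, SE 1.43, limma adjusted p = 0.541).

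Skeletal and heart muscle miRNAs were high in WT replicate 2 alone. miR-133a was at -2.53, 1.86, -4.24 and -3.49 in WT and at -5.80, -3.92, -3.25 and -4.33 in KO. For the mean of 5 muscle assays WT replicate 2 lay at -0.37, and the other 7 E16.5 samples between -8.48 and -4.88. Of the 13 mesenchyme and muscle assays, miR-133b (-2.56, limma adjusted p = 0.0444) and the human miR-1 assay were called lower, where 42.2% of all assays were. Neither of the 2 passed without WT replicate 2 (-1.17, limma adjusted p = 0.13, and -2.24, 0.0933). The other mesenchyme assays, such as miR-143, miR-145, miR-199a and miR-214, had changes of -0.57 to 0.21. The summed level of the list was 1.27 to 3.59 in WT and 1.07 to 1.87 in KO. WT replicate 2 is also the sample with the widest gap between control sets, and a part of muscle tissue in its other values was not tested.

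miR-451, a red cell miRNA that Argonaute 2 matures without Dicer, did not pass. It was at -3.73, -3.14, -4.34 and -4.40 in WT and at -5.07, -4.56, -4.06 and -5.18 in KO, and the groups overlapped (-0.82, SE 0.46, limma adjusted p = 0.151). With own-set controls the change was -0.44 and without WT replicates 1 and 2 -0.35 (limma adjusted p = 0.409 and 0.666). miR-486, another erythroid miRNA, had -0.91 (SE 0.40, limma adjusted p = 0.0718). The summed erythroid level was -2.50 to -1.08 in WT and -3.09 to -2.51 in KO, just without overlap, and miR-144 was undetected in all 8 samples. The mirtron arm miR-877#, from a spliced intron that needs Dicer but not Drosha, had -0.59 (SE 0.40, limma adjusted p = 0.221).

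miR-690 and miR-2182 rose in KO. miR-690 was at -3.58, -3.97, -1.93 and -2.26 in WT and at -1.02, -0.81, -1.09 and -0.76 in KO, 4.04-fold higher (log2 change 2.02, SE 0.46, limma adjusted p = 0.00526). WT replicates 1 and 2 were the lowest, and without them the change was 1.18 (limma adjusted p = 0.138). miR-2182 was at -4.68, -5.14, -4.27 and -3.60 in WT and at -3.05, -3.20, -2.93 and -3.05 in KO (1.37, SE 0.51, limma adjusted p = 0.0412). With own-set controls its change was 0.99, which missed the threshold (limma adjusted p = 0.0746). Without WT replicates 1 and 2, the assay called higher was miR-296-3p. Its sole detected WT sample was replicate 1, so leaving that sample out set the direction of the call.

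Several assays with changes above 0 are named for RNAs that later work assigned to other RNA classes. These are miR-1274a and miR-720, fragments of tRNAs, and miR-712, from a ribosomal RNA precursor, picked here after their values were seen. miR-1274a was at -1.53, -1.61, -1.69 and 0.44 in WT and at 0.28, -0.15, 0.30 and 0.58 in KO, where WT replicate 4 lay among the KO samples (1.35, limma adjusted p = 0.102). miR-720 and miR-712 had 0.15 and 0.78 (limma adjusted p = 0.842 and 0.2).

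The pattern at E16.5 can be set beside that at E15.5, which used other animals. Of the 144 assays lower at E16.5, 139 had a change below 0 at E15.5 and 41 were called there (28.5%), where 12.6% of all assays were. Those 41 are 95.3% of the 43 called at E15.5. The difference between the ages was called for 0 assays by limma, with a smallest adjusted p of 0.986. At an unadjusted p under 0.05 there were 13 of 332, no more than that threshold passes on average without any difference. All 13 had the more negative change at E16.5. The median of the 332 changes was also more negative there (-1.04 against -0.62), so this direction is not particular to the 13. Whether a shift shared by the assays gave it was not tested. The changes of the 332 assays had a Pearson correlation of 0.74 between ages, given as a description, since all assays of a sample share its controls and its panel.

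Some large changes were near equal at both ages, among them miR-674 (-5.24 at E16.5 and -5.20 at E15.5), miR-107 (-2.50 and -2.51), let-7d (-2.13 and -2.05) and miR-672 (-2.80 and -2.92). miR-674 was detected in 1 of 4 KO samples at either age, so both of its changes rest on wells set to Ct 28. Others differed in size without a call on the difference, as miR-202 (-4.89 and -2.71), miR-292-3p (-4.32 and -1.97) and miR-194 (-4.62 and -1.23). At E15.5 miR-194 was detected in 2 of 4 WT samples and in 1 KO sample, so its changes rest on undetected wells. For miR-202 the KO samples at E15.5 gave a Ct of 26.82 to 30.64, of which 2 counted as detected. The median of the 332 changes was -0.62 at E15.5 and -1.04 at E16.5, as the plot of both ages shows.

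**Figure D5:**
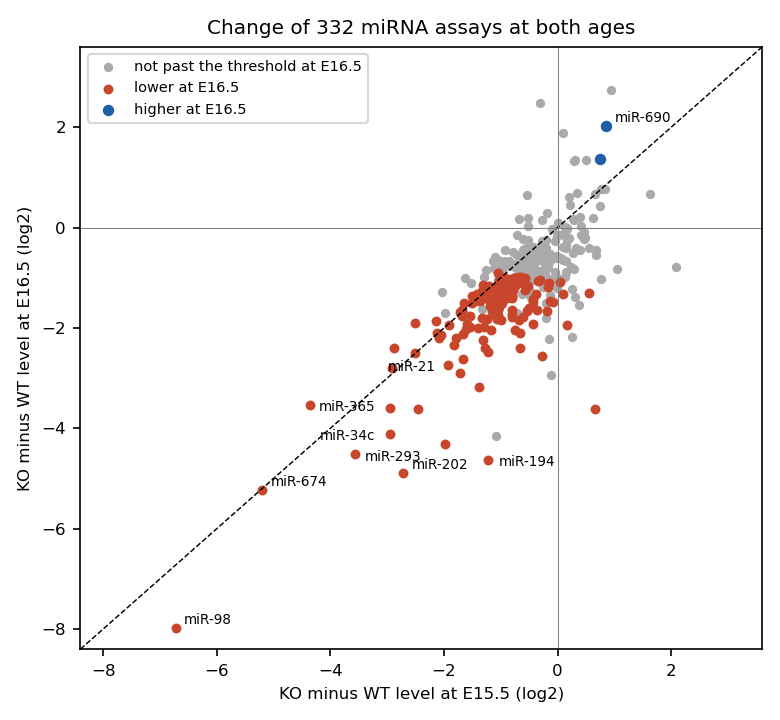
KO minus WT level (log2) of 332 miRNA assays at E15.5 (horizontal) and E16.5 (vertical), coloured by the E16.5 call, with a dashed line of equal change. miR-98 lies lowest at both ages (-6.72 and -7.98), and the difference between ages was called for 0 assays by limma.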

How the data were processed

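Total RNA of pooled E16.5 adrenals was reverse transcribed with Megaplex primers, per the labels' protocols. The deposited table gives Ct values that the authors did not normalize, in units other than counts, for 846 wells. A second table gives the authors' log2 changes, taken as deposited. For all 272 assays with 1 well and a Ct in every sample, those values equalled KO minus WT Ct against 1 of the U6 wells within 0.002 cycles, so positive means less RNA in KO. This match placed the wells on 16 sub-arrays, and the order of the table placed the other wells, with 0 of the 272 on another side. The 2 sets of sub-arrays are thus inferred. The sources used here give no instrument settings. Wells past Ct 28 were set to 28, 2 wells of 1 name were averaged, and 341 assays were fitted with limma 3.58.1 in R 4.3.3 (4 group means, 16 samples, eBayes, Benjamini-Hochberg adjustment, threshold 0.05). The E16.5 members and lists were chosen with earlier results of these data known. Single values used exact permutation tests over 70 splits. Named assays were the 12 largest falls, up to 12 largest rises, assays on in 1 genotype and off in the other, up to 4 per list (all of lists of up to 6), extreme hairpin pairs, the 10 highest WT levels, miR-451 and the controls. Other assays are named in the text where a count or position singled them out, after their values were seen. Coordinates and sequences are from RefSeq. On simulated data with the spreads of the 341 assays, limma called 87.0% of 200 assays changed by -2 and 29.7% of those changed by -1 for KO against WT at E16.5. There the noise of each assay was drawn independently and every well counted as detected. The simulation thus does not cover a shift shared by the assays of a sample, or wells set to Ct 28. The labels do not say that samples with the same number share a litter, so the main fit did not pair them. Samples with the same number did not deviate together (correlations of -0.15, -0.04, 0.07 and -0.11), which cannot show that they came from different litters.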

Additional observations from a re-analysis of the deposited data

Results flagged for a closer look

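In 15 of 203 groups of 4 samples, the highest or lowest sample lay so far from the others that its gap passed Dixon's 95% critical value. Chance gives about 1 in 20 such groups.

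Wells that fell out of their group by detection were miR-20a in KO replicate 4 (undetected, level -11.23), miR-674 in KO replicate 2 (-6.11) and miR-194 in KO replicate 2 (-6.80), the last 2 being the sole detected KO samples. miR-292-3p in KO replicate 3 (-9.96) was above its other KO samples.

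Among WT samples, replicate 2 was high for miR-10a (0.87), miR-203 (-3.21) and miR-337-5p (-1.88). Replicate 3 was low for miR-34b-3p (-2.38). Replicate 4 was low for miR-423-5p (-6.54) and high for miR-18a# (-6.42).

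Among KO samples, replicate 3 was high for miR-15b (-1.83) and miR-223 (-1.16), replicate 4 was low for miR-15a (-6.46) and miR-494 (-6.03), and replicate 2 was low for miR-30c (-0.0040).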

How the results depend on the processing

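Counts of calls depended on the reference and on the samples kept. The 144 lower calls became 93 with U6 alone, 14 with the miRNA median as reference and 13 with no reference, and the 2 higher calls became 46 with the miRNA median and 1 with no reference. The miRNA median moves the median change from -1.04 to 0.29, since it removes a shift that most miRNAs share, and lower calls are then 23.3% of all calls instead of 98.6%. Alternatives chosen after seeing the data gave 21 lower and 1 higher without WT replicates 1 and 2, 23 and 1 with own-set controls as well, and 4 higher with own-set controls on the E16.5 samples alone. Without WT replicates 1 and 2 only 2 WT samples remain, which by itself lowers precision and the number of calls. No other pair was left out, so what these 2 samples in particular add to that loss was not tested. Higher calls were 1 with a limit of Ct 30, 1 without the detection filter and 4 with the E16.5 samples alone. Leaving out 1 sample at a time gave 84 to 160 lower calls (84 without WT replicate 2, 91 and 92 without KO replicates 1 and 4) and 1 to 5 higher. With a replicate block there were 111 lower calls, of which 106 were among the 144, and 3 higher. The labels do not say that samples of the same number share a litter. The difference in median miRNA level per sample (-1.11) was 0.22 with the miRNA median, -0.52 with no reference, -0.59 without the filter, -0.92 without WT replicates 1 and 2 and -0.86 with own-set controls as well, and -1.29 to -0.98 leaving out 1 sample at a time (-0.99 without WT replicate 2). Its exact permutation p was 0.0286 in 7 of the 8 leave-outs and 0.0571 without WT replicate 2. With 2 WT samples it was 0.133, where fewer splits exist and p cannot be as small. With the miRNA median 189 of the 332 changes had the other sign, 38 of them among the 104 named assays, and the 14 of those called with at least 1 of these references were miR-127 (0.31), miR-130b (0.345), miR-146a (1.09), miR-15b (0.19), miR-16 (0.082), miR-17 (0.093), miR-203 (0.18), miR-204 (0.90), miR-223 (1.32), miR-24 (0.11), miR-296 (0.34), miR-467a (0.12), miR-467c (0.14) and miR-467e (0.00075). The cause of the other moves was not tested.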

Other observations

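Of the 332 assays, 7 gave a Ct of 28 or less in a no-template well. For miR-141# that Ct was 21.997, for miR-1896 19.521 and for miR-31 7.585, and their levels are not interpreted singly here. They remain in the counts over the 332 assays, miR-141# also in the epithelial list and miR-31 in the pairs of arms. The Sfmbt2 intron cluster, a placental group of repeated hairpins, had 6 detected assays of 20 on the panel. Of these, 4 fell (miR-669a -2.20, miR-467e -1.33, miR-467a -1.21 and miR-467c -1.20), where 42.2% of all assays did. With own-set controls 3 were called, where 32.6% of all assays were, and without WT replicates 1 and 2 limma called 0. miR-467e was detected in 3 WT samples and in no KO sample, so its direction was fixed by the detection filter. Across the 269 assays detected in all 8 samples, the WT level and the change had a Pearson correlation of -0.01, given as a description.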
